A study of Homo sapiens with 4 samples.

Results

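The step between 6 h and 12 h of a treatment course was described in HepG2 cells, an established line grown from a liver tumour, which still expresses a large part of the hepatocyte programme. The series holds 4 arrays, 1 each at 0, 2, 6 and 12 h with 200 ng/ml APRIL, a soluble cytokine related to tumour necrosis factor that is best known for keeping plasma cells alive. The 12 h array and the 6 h array, 2 of the 4, make up the step. All 4 had been kept without serum beforehand, for 24 h according to the series' design text and overnight according to the labels, and the 0 h array had received no APRIL. There was no untreated array at 6 h or 12 h, so time in culture and time with APRIL cannot be told apart. For each probe set the 6 h value was subtracted from the 12 h value, and a gene's step is the median over its probe sets that carry exactly 1 gene symbol. This gave a step for 19775 genes. With 1 array a side, replicate error could not be measured and nothing was tested: every value below is a difference between 2 arrays. An SD printed with a gene is the spread between its probe sets, a spread of measurement only, and is given for the genes the results turn on.

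The deposited values, taken to be log2 since the base of the log is not stated, are relative to each probe set's own median over the 4 arrays. A value of 0.5 at 12 h therefore says how far that array lay above the middle of the 4, and nothing about how abundant the transcript was. The centring also makes the middle 2 of the 4 values of a probe set mirror images around 0. A log2 difference of 1, a 2-fold ratio, is the threshold used throughout. For some lists the members with their highest or lowest value on a given array are counted. The share of all genes with that place was not counted, so these counts are descriptions only. The gene lists were drawn up with earlier results of these data known. Their medians and counts of members above or below 0 are likewise descriptions only.

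Several groups of genes are described below, which hold only part of the genes past 2-fold. Their textbook roles are as follows. Metallothioneins are short proteins whose many cysteines hold zinc and copper, and the zinc-sensing factor MTF1 induces their genes through metal response elements close to the start of transcription. Genes for DNA replication are switched on by E2F factors as cells enter S phase, and genes for mitosis follow in G2. Immediate-early genes such as FOS, JUN and EGR1 are induced by growth factors and stress through serum response factor and MAP kinases, and AP-1 built from their products acts on further genes. The integrated stress response slows translation but raises the factor ATF4, which induces amino acid transporters, enzymes of amino acid synthesis and aminoacyl-tRNA synthetases. In hepatocytes, sterol-sensing SREBP factors set cholesterol synthesis, and bile acid and one-carbon enzymes mark the differentiated state.

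Over all genes the step had a median of -0.02, an SD of 0.34 and a robust SD of 0.23. The difference between the 2 h and 0 h arrays, which share no array with the step, had an SD of 0.18 and a robust SD of 0.16. At or past 2-fold, 158 genes were higher at 12 h (0.799% of those measured) and 175 were lower (0.885%), together 333 (1.68%). Between 0 h and 2 h the same rule counted 9 genes (0.0455%). Of all genes, 45.1% lay above 0 and 54.3% below 0 in the step. All probe sets of a gene had 1 sign for 153 of the 158 higher and 171 of the 175 lower genes, although 85 and 111 of them rest on a single probe set. The genes with probe sets in both directions, or with a probe set at 0, were ATF3, CREB5, EDN1, PXK and TCP11L2 on the higher side and CD36, GSTA1, IFT25 and MT1G on the lower side.

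The 18 bacterial spike-in probe sets added at hybridization had a median of -0.44 in the step, with all 18 below 0 (-0.57 to -0.22), and the 24 labelling spike-in probe sets had a median of -0.39, also all below 0. Centring both arrays on the hybridization spike-ins raised every step by 0.43 and gave 733 genes higher and 53 lower, so that 93.3% of calls were higher against 47.4% with the values as deposited. The part of this offset in the results was not tested. Under it the medians of 18 of the 25 gene lists below 0 turn above 0, and the turned value is given beside each list described. The 5′ and 3′ control probe sets of ACTB stood at 0.29 and -0.07 in the step, and those of GAPDH at -0.14 and -0.24.

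**Figure D1:**
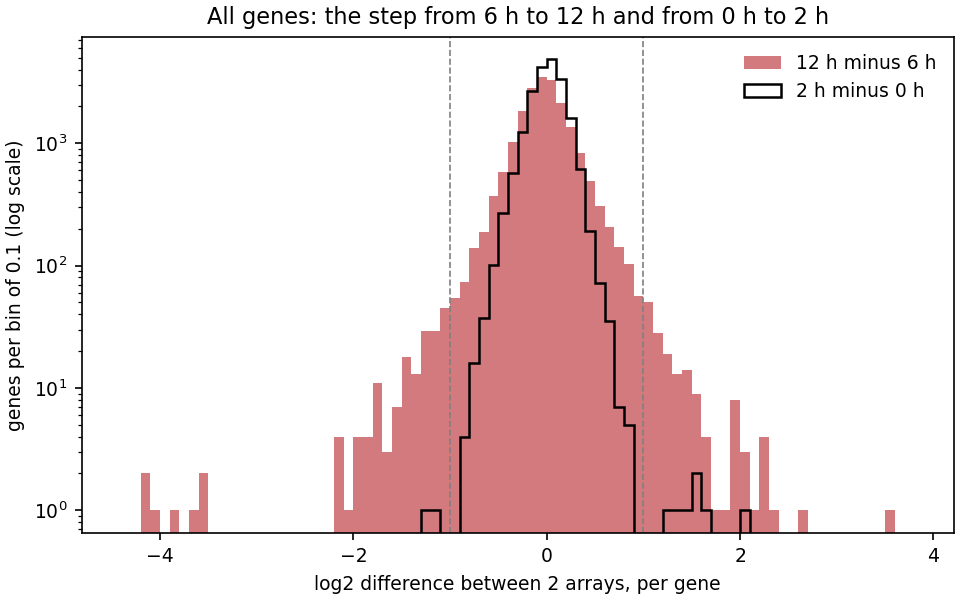
Number of genes (log scale) per bin of 0.1 in log2 difference, for 12 h minus 6 h (filled) and 2 h minus 0 h (outline), 19775 genes each. Dashed lines mark 2-fold, past which lay 333 genes in the step and 9 between 0 h and 2 h.

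Metallothioneins formed the bottom of the distribution. All 8 measured members were past 2-fold lower (against 0.885% of all genes), with a median of -3.75, and -3.32 after centring on the spike-ins. Without cross-matching probe sets, those named _x_at or _s_at, which may read more than 1 transcript, only MT1M and MT1G have a value, and the median of these 2 was -0.84. All 8 had their lowest value of the 4 arrays at 12 h. Across 0, 2, 6 and 12 h the medians of the 8 genes' values were -0.60, 0.84, 0.60 and -3.10. MT1X stood at -0.57, 1.08, 0.57 and -3.63, a step of -4.20 or 18.4-fold lower (SD 0.07 between 2 probe sets). MT1E stood at -0.54, 1.05, 0.54 and -3.59, a step of -4.13 (SD 0.22 between 2 probe sets). For both genes the 2 h and 6 h arrays were high, the 0 h array lay between, and the 12 h array was far below all others.

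The other members followed the same order of arrays. MT1H stepped by -4.04 (-0.62, 0.83, 0.62 and -3.41), MT2A, the most widely expressed family member, by -3.87 (-0.66, 0.85, 0.66 and -3.22), and MT1HL1 by -3.53. MT1F stood at -0.63, 0.75, 0.68 and -2.94, a step of -3.63 (SD 0.20 between 2 probe sets). MT1M had a smaller step, -1.82, from 0.67 at 6 h to -1.15 at 12 h. It is the only one of the 8 read solely by a probe set whose name does not mark it as cross-matching, so the other readings may share transcripts of near-identical copies and are not separate measurements. MT1G was uncertain for this reason: its step of -2.19 is the middle of a cross-matching probe set at -4.53 and another, not so marked, at 0.14. Of the genes of the family, MT2A, MT1E, MT1M, MT1F, MT1G, MT1H and MT1X follow each other in this order among the measured genes of the chromosome 16 cluster.

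Matches to the metal response element lie upstream of these genes. Shown are the 250 bases before the RefSeq gene start (GRCh38.p14), 5′ to 3′ on the gene's strand, for the 3 metallothioneins with an entry in the promoter table, with matches to the metal response core TGCGCNC or its variant form TGCACNC (either strand) in capitals. They lie at chr16:56682220-56682469 for MT1X, chr16:56608334-56608583 for MT2A and chr16:56669564-56669813 for MT1H, all on the plus strand.
MT1X: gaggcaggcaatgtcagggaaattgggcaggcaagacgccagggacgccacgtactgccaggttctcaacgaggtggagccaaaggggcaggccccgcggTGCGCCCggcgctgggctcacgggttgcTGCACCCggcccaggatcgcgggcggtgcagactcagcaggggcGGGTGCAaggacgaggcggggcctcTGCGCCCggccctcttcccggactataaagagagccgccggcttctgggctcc
MT2A: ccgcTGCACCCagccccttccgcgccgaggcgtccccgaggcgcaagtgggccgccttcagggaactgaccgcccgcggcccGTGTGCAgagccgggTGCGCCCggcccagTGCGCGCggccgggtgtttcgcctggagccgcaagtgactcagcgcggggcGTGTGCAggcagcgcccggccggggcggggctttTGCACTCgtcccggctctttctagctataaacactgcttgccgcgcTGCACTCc
MT1H: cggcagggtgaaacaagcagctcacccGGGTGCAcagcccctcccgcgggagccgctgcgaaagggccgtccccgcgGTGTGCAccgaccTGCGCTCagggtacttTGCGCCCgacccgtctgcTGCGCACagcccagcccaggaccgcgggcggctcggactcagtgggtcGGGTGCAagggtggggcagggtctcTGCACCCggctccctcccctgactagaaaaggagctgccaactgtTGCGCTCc
MT1X holds 4 matches, MT2A 7 and MT1H 8. Among all 27305 tabulated promoters, 24.7% held at least 1 match and 6.51% held 2 or more. Among measured protein-coding genes with an entry these shares were 30.8% and 8.78%. Of the genes past 2-fold lower with an entry, 45 of 146 (30.8%) held a match. With 3 of 8 members in the table, the share of metallothioneins with a match is not a measure of the family, and a match is a stretch of letters rather than a site in use.

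Zinc handling outside the metallothioneins was divided, and its median turns with the centring. MTF1 itself was at 0.24, and the 21 genes of the list, which also holds zinc exporters and importers of the SLC30 and SLC39 families, had a median of -0.03 with 9 above 0, which becomes 0.40 on the spike-ins. None was past 2-fold. SLC39A11, a zinc transporter, was highest at 0.93, followed by SLC39A14, a zinc and iron importer of liver cells, at 0.88, and SLC30A9 was lowest at -0.64. SLC30A1, the zinc exporter that is a classical MTF1 target, was at 0.08. These genes were picked after their values were seen.

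**Figure D2:**
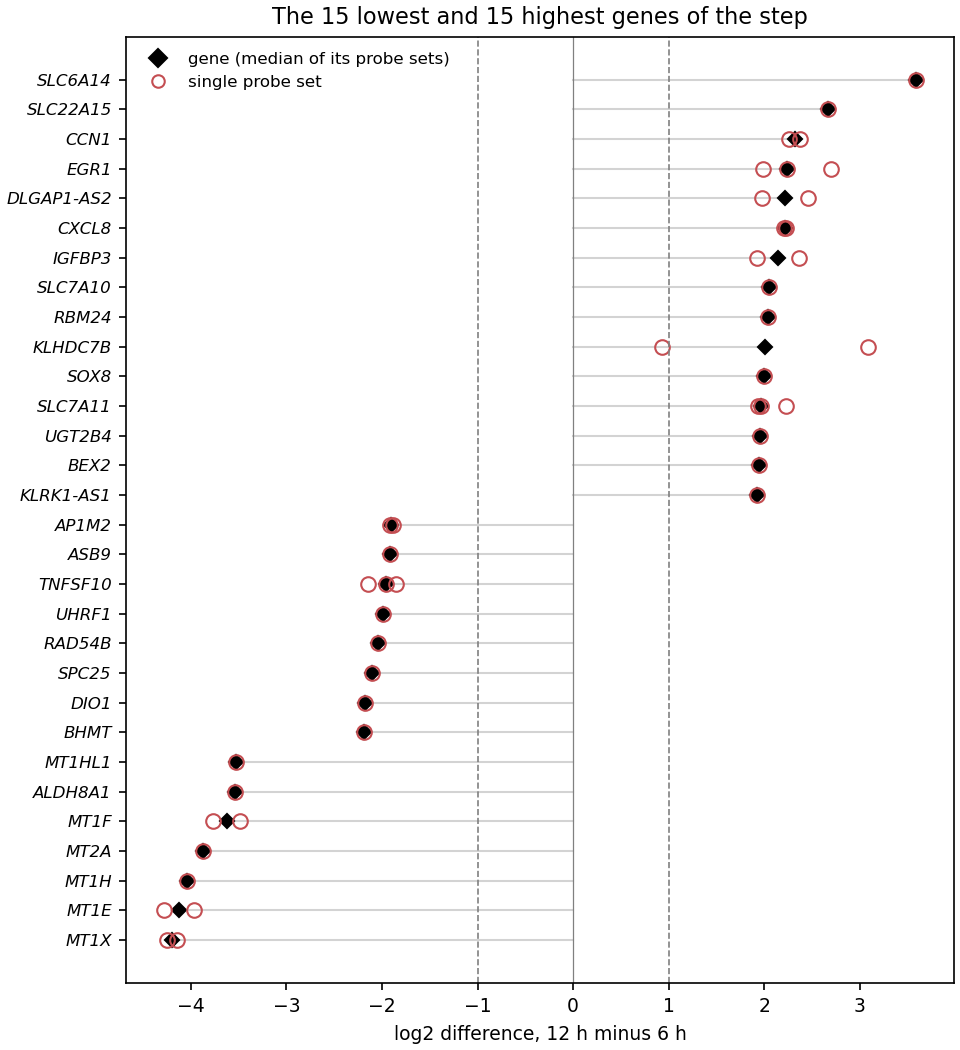
Step of the 15 lowest and 15 highest genes whose probe sets all have 1 sign, in log2; diamonds are genes (medians) and circles their probe sets, with dashed lines at 2-fold. The 6 metallothioneins and ALDH8A1 lie at or below -3.53, and SLC6A14 at 3.59 is the highest gene.

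DNA replication genes were lower as a group. In the list of helicase and origin genes, all 20 measured members were below 0 (54.3% of all genes were), with a median of -0.70 (-0.26 after centring on the spike-ins), and 9 were past 2-fold lower. All 20 had their lowest value of the 4 arrays at 12 h. In bulk RNA, fewer cells in S phase and less of these transcripts per cell cannot be told apart. The subunits of the MCM ring, which unwinds DNA at the fork, were represented by MCM6, which stood at 0.07, -0.05, 0.07 and -1.51 over the 4 times, a step of -1.58 (SD 0.28 between 2 probe sets). MCM2 was at 0.10, -0.10, 0.27 and -1.26, a step of -1.52, and MCM4 stepped by -1.26 (SD 0.57 between 5 probe sets). For these genes the first 3 arrays lay close together and the 12 h array stood alone.

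MCM5 stepped by -1.02 (SD 0.45 between 2 probe sets), while MCM7 at -0.67 and MCM3 at -0.63 stayed short of 2-fold. GINS1, a subunit of the complex that joins the ring with its partner CDC45, was at 0.13, -0.13, 0.45 and -1.29, a step of -1.75. CDC45 itself stepped by -1.04. MCM10, which activates the helicase, was at 0.16, -0.05, 0.17 and -1.58, a step of -1.63 (SD 0.41 between 3 probe sets). The loading factors ORC1 at -1.17 and CDC6 at -1.005 were past the threshold.

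At the fork, all 28 measured genes were below 0, with a median of -0.71 (-0.28 on the spike-ins) and 9 past 2-fold, and 25 had their lowest value at 12 h. UHRF1, which brings the maintenance DNA methyltransferase to newly made DNA, stood at 0.24, -0.13, 0.13 and -1.86, a step of -1.99 or the largest of the list. POLE2, a subunit of the leading-strand polymerase, was at 0.14, -0.14, 0.35 and -1.38 (step -1.73). RPA3, a subunit of the protein that coats single-stranded DNA, was at 0.07, -0.07, 0.27 and -1.33 (step -1.60), and WDHD1, which ties polymerase alpha to the helicase, stepped by -1.38 (SD 0.40 between 3 probe sets). PCNA, the sliding clamp, stepped by -1.24, LIG1 by -1.30 and FEN1 by -1.04 (SD 0.18 between 2 probe sets). The large subunit POLE, at -0.02, did not share the difference of POLE2.

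Enzymes that make DNA precursors showed the same pattern, with 9 of 10 below 0 and a median of -0.84 (-0.41 on the spike-ins, and -0.47 over 9 genes without cross-matching probe sets). RRM2, the S-phase subunit of ribonucleotide reductase, stood at 0.11, -0.03, 0.08 and -1.80, a step of -1.88 (SD 0.32 between 2 probe sets). Its partner RRM1 stepped by -1.09 (SD 0.32 between 2 probe sets). The salvage enzyme TK1 was at 0.14, -0.06, 0.06 and -1.50, a step of -1.57 (SD 0.03 between 2 probe sets), and DCK stepped by -1.30. CTPS1, which makes CTP, was the 1 member above 0, at 0.37.

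Homologous recombination and Fanconi genes, which repair breaks and crosslinks at stalled forks, had a median of -0.78 (-0.34 on the spike-ins), with 17 of 18 below 0 and 5 past 2-fold. RAD51AP1 stood at 0.11, -0.11, 0.45 and -1.31, a step of -1.76, and EXO1 stepped by -1.45. BRIP1 stepped by -1.39 (SD 0.81 between 2 probe sets) and FANCG by -1.29. RAD54B had the largest step of the list, -2.05, but by another course: it stood at 0.08 and -0.08 at 0 h and 2 h, at 1.84 at 6 h, and at -0.21 at 12 h. Its step is the end of a high value on the 6 h array, not a low value at 12 h.

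The E2F core, spelt TTCCCGC in its first form and TTGGCGC in the second, with further forms TTGCCGC and lastly TTCGCGC, was looked for on either strand in the 250 bases before the gene start. Of the genes past 2-fold lower that have an entry in the table, 42 of 146 (28.8%) held it, and 12 (8.22%) held it at 2 or more places. Among all measured protein-coding genes with an entry the share was 15.4%, and over all tabulated promoters it was 11.02%. It was 7 of 16 (43.8%) for the helicase list and 11 of 25 (44%) for the fork list. The matches may overlap each other, as the first sequence shows. Printed are MCM6 (chr2:135876444-135876693, minus strand) and UHRF1 (chr19:4909251-4909500, plus strand), the members with a match that had the largest steps of their lists, with matches in capitals.
MCM6: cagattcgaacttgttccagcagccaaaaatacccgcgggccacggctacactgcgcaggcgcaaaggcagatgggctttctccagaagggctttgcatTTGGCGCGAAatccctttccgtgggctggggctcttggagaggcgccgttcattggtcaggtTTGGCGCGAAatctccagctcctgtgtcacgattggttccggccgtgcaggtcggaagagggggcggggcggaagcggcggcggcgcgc
UHRF1: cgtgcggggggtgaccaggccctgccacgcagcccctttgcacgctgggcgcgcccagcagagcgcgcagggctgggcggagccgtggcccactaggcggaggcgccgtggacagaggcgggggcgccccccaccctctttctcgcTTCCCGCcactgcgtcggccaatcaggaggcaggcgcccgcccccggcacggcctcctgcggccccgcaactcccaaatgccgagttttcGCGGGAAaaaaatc
In MCM6 4 matches form 2 overlapping pairs, and in UHRF1 the 2 matches are apart. The metal response motif was in 9 of 16 members of the helicase list (56.25%) and 8 of 25 of the fork list (32%). Among measured protein-coding genes with an entry its share was 30.8%. These shares describe the lists, and many members of the 2 replication lists are textbook E2F targets.

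Mitotic genes were lower too, but their course differed. Over 34 genes of the G2/M list the median was -0.53 (-0.10 on the spike-ins), 32 below 0 and 4 past 2-fold. Across the 4 times the medians of their values were 0.05, -0.06, 0.25 and -0.16, and 28 of the 34 had their highest value at 6 h, against 13 of 20 in the helicase list. At 12 h 22 of the 34 had their lowest value, against all 20 of the helicase list. TTK, a spindle checkpoint kinase, stood at 0.15, -0.19, 0.90 and -0.15, a step of -1.05. KIF18A, a kinesin that aligns chromosomes, was at 0.16, -0.19, 0.97 and -0.16, a step of -1.13, and ANLN, a scaffold of the cleavage furrow, at 0.08, -0.08, 0.86 and -0.22. For these 3 genes the 6 h array was the one that stood apart, and the 12 h array lay near 0 h and 2 h. The kinesin KIF11 stepped by -1.12, between 0.50 at 6 h and -0.62 at 12 h.

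SPC25, a kinetochore subunit outside the list, had the largest step of a mitotic gene among the named ones, -2.11 (0.09, -0.09, 0.43 and -1.68). CDK1, the mitotic kinase, was just short of the threshold at -0.99 (SD 0.27 between 4 probe sets), and its partners CCNA2 and CCNB1 were at -0.93 and -0.56.

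The regulators upstream of S phase lay closer to 0. Over 27 genes of the E2F, RB and G1 cyclin list the median was -0.07 and 10 lay above 0, with a median of 0.36 on the spike-ins. Only 2 were past 2-fold, E2F8, a repressive E2F that is itself an E2F target, at -1.88 (0.18, -0.18, 0.28 and -1.61), and SKP2, which marks CDK inhibitors for destruction, at -1.15 (SD 0.26 between 3 probe sets). The next members were E2F7 at -0.78, whose 2 probe sets were far apart (SD 1.07), and CCNE2 at -0.63, whose one probe set that is not marked as cross-matching gave -1.11. E2F1 was at 0.12, CCND1 at -0.21 and the CDK inhibitor CDKN1A at 0.08. Replication-dependent histone genes, which are transcribed in S phase, had a median of -0.05 over 31 genes (0.39 on the spike-ins) with 1 past 2-fold lower (H4C11, -1.26). Their probe sets may read near-identical copies.

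**Figure D3:**
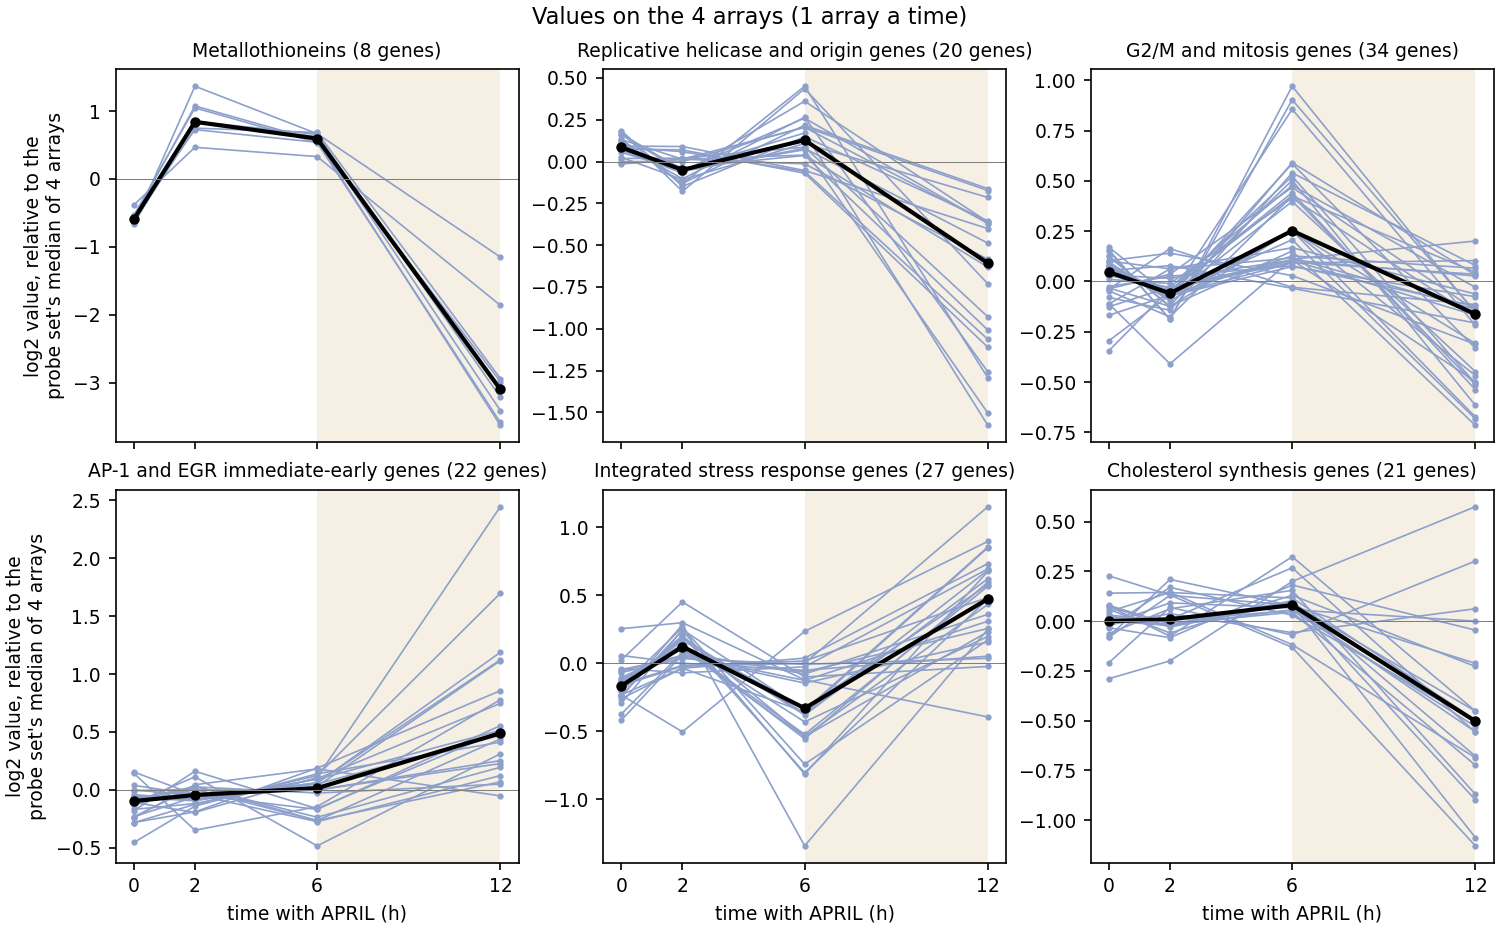
Values on the 4 arrays (log2, relative to each probe set's median) for 6 gene lists; thin lines are genes, the black line is the list's median and the shaded span is the step. Metallothionein medians go from 0.60 to -3.10 and immediate-early medians from 0.02 to 0.49, while the G2/M and integrated stress response medians turn at 6 h (0.25 and -0.33).

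Among higher genes, immediate-early genes were higher as a group. Of 22 genes of the AP-1 and EGR list 21 were above 0 (45.1% of all genes were), the median was 0.67 (1.10 on the spike-ins), and 21 had their highest value of the 4 arrays at 12 h. Without cross-matching probe sets the list median was 0.46 over 14 genes. EGR1 and IER3, which are read by such probe sets alone, then drop out. Past 2-fold with all probe sets were EGR1, IER3, JUN, JUNB and ATF3. EGR1, a zinc finger factor, stood at -0.11, -0.19, 0.11 and 2.44, a step of 2.23 (SD 0.36 between 3 probe sets). IER3 was at -0.28, -0.12, 0.12 and 1.70 (step 1.57), and JUNB at -0.08, -0.03, 0.03 and 1.12 (step 1.08). In each of these genes 3 arrays lay close together and the 12 h array stood above them.

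JUN, the AP-1 subunit, was at -0.23, -0.06, 0.06 and 1.19, a step of 1.10 (SD 0.49 between 4 probe sets), and at 0.46 once cross-matching probe sets were left out. ATF3 is uncertain, since its 3 probe sets gave -0.13, 1.02 and 1.75. FOS was at 0.92 and MYC at 0.79, short of 2-fold. DUSP1, a phosphatase that is often induced alongside, was the 1 member below 0, at -0.10 (SD 0.71 between 3 probe sets).

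NF-kB targets were divided. The 22 genes had a median of 0.19, with 16 above 0, 3 past 2-fold higher and 1 past 2-fold lower. Without cross-matching probe sets the median was 0.04 over 17 genes, and CXCL8 and ICAM1, which are read by such probe sets alone, drop out. CXCL8, the neutrophil chemokine, stood at -0.17, -0.41, 0.17 and 2.39, a step of 2.21 (SD 0.01 between 2 probe sets). ICAM1, the adhesion molecule that leukocytes bind, was at -0.23, 0.16, -0.17 and 1.19, a step of 1.60 (SD 0.63 between 3 probe sets). RELB, a subunit of the noncanonical NF-kB pathway, was at -0.18, 0.18, -0.40 and 1.02, a step of 1.42. TNFSF10, the death ligand TRAIL, went the other way, from 0.42 at 6 h to -1.54 at 12 h, a step of -1.96 (SD 0.15 between 3 probe sets). The inhibitors that NF-kB induces as feedback had smaller steps, with NFKBIA at 0.40 (SD 0.60 between 2 probe sets) and TNFAIP3 at 0.23, and the chemokine genes CXCL1, CXCL2 and CXCL3 lay between 0.04 and 0.18.

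The promoters of EGR1 and CXCL8 hold matches to elements of these pathways. In EGR1 (chr5:138465229-138465478, plus strand) the capitals mark 2 CArG boxes, the element of serum response factor, which 1.14% of all promoters in the table hold. In CXCL8 (chr4:73740319-73740568, plus strand) they mark the AP-1 element TGANTCA, which 6.60% hold.
EGR1: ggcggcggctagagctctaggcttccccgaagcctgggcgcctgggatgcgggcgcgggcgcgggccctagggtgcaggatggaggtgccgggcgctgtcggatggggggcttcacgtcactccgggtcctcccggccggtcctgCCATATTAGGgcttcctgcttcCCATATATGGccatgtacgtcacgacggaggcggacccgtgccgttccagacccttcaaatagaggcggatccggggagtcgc
CXCL8: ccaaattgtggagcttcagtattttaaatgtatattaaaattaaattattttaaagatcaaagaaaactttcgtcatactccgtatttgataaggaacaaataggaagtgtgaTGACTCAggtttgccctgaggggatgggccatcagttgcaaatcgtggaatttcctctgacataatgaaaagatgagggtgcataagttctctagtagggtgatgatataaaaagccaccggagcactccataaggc
The NF-kB consensus searched was found in 11 of 19 list members with an entry (57.9%, against 5.99% of measured protein-coding genes), a list made of known targets. It was not found in the window of CXCL8 as spelt, nor in that of ICAM1. Of 120 genes past 2-fold higher with an entry, 4 (3.33%) held it. The AP-1 element was in 7 of these 120 (5.83%) and a CArG box in 2 (1.67%). Among measured protein-coding genes the shares of these 2 elements were 4.75% and 1.18%. Of 16 immediate-early members with an entry, 2 held a CArG box and none the AP-1 element.

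Feedback genes of the ERK pathway had a median of 0.35 over 20 genes with 16 above 0. DUSP5, a nuclear phosphatase of ERK, was the 1 member past 2-fold, at 1.001 (0.04, -0.13, -0.04 and 0.96). PHLDA1 followed at 0.85 (SD 0.30 between 6 probe sets), the ETS factor ETV4 at 0.80 (SD 0.21 between 2 probe sets) and SPRY4 at 0.73, while DUSP6 was at -0.04. Among EGF receptor genes and ligands ERRFI1, which inhibits the receptor, was past 2-fold at 1.28 and the ligand HBEGF was at 0.84 (SD 0.78 between 4 probe sets). VEGFA was at 0.92 (SD 0.32 between 4 probe sets). EDN1, which encodes the vasoconstrictor endothelin, had a step of 2.25, but its 3 probe sets ranged from -0.12 to 3.07.

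Targets of serum response factor and YAP had a median of 0.27 over 18 genes, with 14 above 0, or 0.15 with cross-matching probe sets left out. CCN1, a secreted matrix protein, stood at -0.02, 0.02, -0.34 and 1.98, a step of 2.32 (SD 0.08 between 2 probe sets). AMOTL2 was at -0.04, -0.47, 0.04 and 1.16 (step 1.12). The related CCN2 was only at 0.42, and SRF itself at 0.08. THBS1 was at 0.83, with its 7 probe sets far apart (SD 0.71), and CNN1 at 0.72.

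The integrated stress response list was the highest of the 50 lists by its median. Of 27 genes 26 were above 0, the median was 0.77 (1.203 on the spike-ins) and 9 were past 2-fold. Its course had a dip: the medians at 0, 2, 6 and 12 h were -0.17, 0.12, -0.33 and 0.47, and 18 of the 27 genes had their lowest value of the 4 arrays at 6 h, while 22 had their highest at 12 h. CTH, the enzyme that makes cysteine from cystathionine, stood at -0.24, 0.28, -1.34 and 0.25, a step of 1.59 (SD 0.26 between 2 probe sets). TRIB3, a pseudokinase induced by ATF4 and CHOP, was at -0.24, 0.24, -0.81 and 0.67, a step of 1.49 (SD 0.35 between 2 probe sets). In CTH the 12 h array lay within the range of 0 h and 2 h, and the 6 h array alone was low; in TRIB3 both ends of the step lay outside that range.

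VLDLR, a lipoprotein receptor, was at -0.20, 0.20, -0.80 and 0.47 (step 1.28). STC2, a secreted glycoprotein, was at -0.23, -0.04, -0.36 and 0.85 (step 1.21, SD 0.02 between 2 probe sets). The serine and cysteine tRNA synthetase genes SARS1 and CARS1 stepped by 1.202 (SD 0.29 between 2 probe sets) and 1.08 (SD 0.53 between 4). PPP1R15A, which restores translation, went from near 0 at 6 h to 1.15 at 12 h. CEBPB stepped by 1.15 and MTHFD2, a mitochondrial folate enzyme, by 1.09 (SD 0.29 between 2 probe sets). With the mean of the 2 h and 6 h arrays in place of the 6 h array, STC2 and PPP1R15A stayed past 2-fold and the other 7 did not, with CTH at 0.78 and VLDLR at 0.77. The factor genes themselves had smaller steps, ATF4 at 0.43 and DDIT3, which encodes CHOP, at 0.69, and PSPH, the last enzyme of serine synthesis, was the 1 member below 0, at -0.28.

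ASNS, asparagine synthetase, whose amino acid response element is a textbook example, had a step of 0.77 (SD 0.73 between 2 probe sets). The element appears as the match TGATGNAA in capitals, in the 250 bases before its start (chr7:97872409-97872658, minus strand).
ASNS: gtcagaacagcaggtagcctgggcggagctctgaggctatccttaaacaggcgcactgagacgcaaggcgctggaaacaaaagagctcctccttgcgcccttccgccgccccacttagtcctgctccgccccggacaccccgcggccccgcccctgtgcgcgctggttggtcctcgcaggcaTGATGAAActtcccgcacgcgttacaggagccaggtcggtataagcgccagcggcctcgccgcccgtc
This motif, chosen after the first motifs had been searched, was in 3 of 23 list members with an entry (13.04%: CHAC1, ASNS and AARS1), against 2.08% of measured protein-coding genes.

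Amino acid transporters held the highest gene of the step. SLC6A14, which carries neutral and cationic amino acids with sodium and chloride, stood at -0.01, 0.01, -0.31 and 3.28, a step of 3.59 from its 1 probe set, with 12 h far above the other arrays. SLC7A10, a small neutral amino acid exchanger, was at -0.24, -0.07, 0.07 and 2.12 (step 2.05). SLC7A11, the cystine importer, had a step of nearly the same size, 1.97 (SD 0.16 between 3 probe sets), by the opposite course: it was at -0.23, 0.23, -1.70 and 0.30, so that 6 h was low and 12 h was back near the first arrays. SLC7A2, an arginine and lysine carrier, was at 1.18 (SD 0.69 between 3 probe sets), and SLC1A5, a glutamine carrier, at 1.06. The 24 transporters as a list had a median of 0.27, with 16 above 0. SLC7A5 and SLC3A2, which form the leucine exchanger, were at 0.22 and 0.71.

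The chaperone arms of the stress responses lay near 0 in the deposited values. The endoplasmic reticulum list, targets of XBP1 and ATF6, had a median of -0.05 over 21 genes, which turns to 0.39 on the spike-ins and to 0.04 without cross-matching probe sets. ERN1, the sensor IRE1, was at 1.21 (SD 0.90 between 3 probe sets) and the co-chaperone DNAJB9 at 1.17 (SD 0.06 between 3 probe sets), and the latter was low at 6 h (-0.19, 0.19, -0.81 and 0.38). CRELD2 was lowest at -0.79, and HSPA5, the chaperone BiP, was at -0.13. Cytosolic heat-shock chaperones had a median of -0.11 over 17 genes, which turns to 0.32 on the spike-ins, and none was past 2-fold. Among NRF2 targets SLC7A11 was past 2-fold higher and HMOX1, which degrades haem, past 2-fold lower at -1.27 (0.10, 0.13, -0.10 and -1.37).

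One-carbon enzymes lay on both sides of a list median of -0.02 over 20 genes (0.41 on the spike-ins). Past 2-fold lower were BHMT, GNMT and MAT1A, and past 2-fold higher CTH and MTHFD2. BHMT, which remethylates homocysteine with betaine, stood at 0.11, -0.11, 0.33 and -1.86, a step of -2.19. GNMT, which consumes S-adenosylmethionine, was at -0.18, 0.18, 0.45 and -1.02 (step -1.47), and MAT1A, the liver form of S-adenosylmethionine synthetase, stepped by -1.05. MAT2A, the form of dividing and non-liver cells, was at 0.76 (SD 0.28 between 2 probe sets), and CTH and MTHFD2 are given above. Of the 20 genes 9 were above 0 and 11 below.

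Cholesterol synthesis genes were lower, with 18 of 21 below 0 and a median of -0.58, which shrank to -0.15 on the spike-ins and to -0.36 over 15 genes without cross-matching probe sets. Past 2-fold were TM7SF2, a sterol reductase, at -1.17 (-0.08, 0.13, 0.08 and -1.09), and FDPS, which makes farnesyl pyrophosphate, at -1.03 (-0.06, 0.06, 0.15 and -0.87). HMGCS1, which makes the substrate of HMG-CoA reductase, was just short of the threshold and lay at -0.998 (0.23, 0.13, -0.13 and -1.13; SD 0.01 between 2 probe sets), and ACAT2 lay at -0.995. In TM7SF2, FDPS and HMGCS1 the 12 h array was below all others. The sterol sensors INSIG1 and SCAP were at -0.06 and 0.37, and SREBF2, the factor gene of the pathway, at 0.12.

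Fatty acid synthesis genes had a median of -0.12 over 21 genes, turning to 0.31 on the spike-ins and shrinking to -0.03 without cross-matching probe sets, with 2 past 2-fold lower. ACSS2, which activates acetate, was at -0.08, 0.08, 0.52 and -0.81 (step -1.32). SCD, the desaturase that makes oleate, was at 0.25, 0.08, -0.08 and -1.14 (step -1.02, SD 0.38 between 4 probe sets). ELOVL6 at -0.75 (SD 0.14 between 3 probe sets) and PNPLA3 at -0.73 (SD 0.13 between 2) came next, and FASN was at -0.11.

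Bile acid genes were divided. CYP8B1, which directs synthesis to cholic acid, was at 0.30, 0.03, -0.03 and -1.49, a step of -1.46, and AKR1D1, a reductase of the pathway, was at -0.02, 0.02, 0.21 and -1.28 (step -1.49). CYP7A1, the rate-limiting enzyme, had a similar step of -1.43, but from a high 6 h value (0.03, -0.63, 1.40 and -0.03); against the mean of 2 h and 6 h it was -0.41. On the other side UGT2B4, which conjugates bile acids with glucuronic acid, was at -0.32, -0.09, 0.09 and 2.05, a step of 1.96, and the exporter subunit SLC51B was at 1.36 (-0.17, 0.17, -0.60 and 0.76). The 18 genes had a median of -0.08 (0.35 on the spike-ins), with 7 above and 11 below 0.

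Drug-metabolising enzymes had a median of -0.18 over 22 genes, turning to 0.25 on the spike-ins. SULT1C2 stepped by -1.30 but its 4 probe sets ranged from -2.46 to -0.33, and GSTA1 by -1.45 with probe sets at -3.07 and 0.17. CYP4F3 was at -1.07. The secreted and enzyme markers of hepatocytes held none past 2-fold: the median of 19 genes was -0.06 (0.37 on the spike-ins), with ALB at -0.32, AFP at 0.06, TTR at 0.07 and PCK1 at -0.52. As the centred values carry no level, the liver identity of the cells could not be checked from these markers. ALDH8A1, an enzyme of tryptophan breakdown, was the lowest gene outside the metallothioneins, at 0.20, -0.20, 0.51 and -3.03, a step of -3.54 from 1 probe set. DIO1, which activates thyroid hormone in liver, was at -0.01, 0.01, 0.29 and -1.90 (step -2.18).

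Sugar metabolism was lower in part. The 24 glycolysis genes and glucose transporters had a median of -0.21, with 17 below 0 and 17 at their lowest at 12 h, a direction that turns to 0.22 on the spike-ins. ALDOC was at 0.03, 0.08, -0.03 and -1.24 (step -1.22), SLC2A3, the high-affinity glucose transporter, at 0.77, 0.54, -0.54 and -1.77 (step -1.19, SD 0.44 between 3 probe sets), and PKLR, the liver pyruvate kinase, stepped by -1.04 (SD 0.40 between 3 probe sets). SLC2A3 was already lower at 6 h than at 2 h. GPI followed at -0.66. ARRDC3, an arrestin-domain protein of the TXNIP family, was at 0.25, 0.30, -0.25 and -1.70 (step -1.44), whereas TXNIP was at -0.05. Hypoxia genes outside glycolysis had a median of 0.10, which turns to -0.09 against the mean of 2 h and 6 h, with MXI1, a MYC antagonist, past 2-fold at 1.17.

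Nucleolar genes were slightly higher. The 26 genes of ribosome biogenesis and RNA polymerase I had a median of 0.27 with 23 above 0, and 18 of them had their lowest value of the 4 arrays at 6 h. None was past 2-fold: DDX21, a nucleolar helicase, was at 0.77 (-0.10, 0.10, -0.41 and 0.36; SD 0.04 between 2 probe sets), and UTP15, BYSL and RRS1 lay between 0.62 and 0.64. All 6 measured snoRNA host genes were above 0, with a median of 0.43, led by SNHG17 at 0.95 (SD 0.03 between 2 probe sets) and EPB41L4A-AS1 at 0.76. Cytosolic ribosomal protein genes stood at a median of 0.01 over 18 genes. Respiratory chain subunits had a median of -0.17 with 22 of 24 below 0, which turns to 0.26 on the spike-ins, and none past 2-fold.

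Of the genes that decide on cell survival, PMAIP1, which encodes the BH3-only protein NOXA, was past 2-fold higher, at 0.15, -0.30, -0.28 and 1.28 (step 1.55, SD 0.41 between 2 probe sets). BIK was at 0.88 and BMF at 0.64. The BCL2 and death receptor list had a median of 0.23 over 24 genes (0.10 against the mean of 2 h and 6 h), and TNFSF10, given above, was its 1 member past 2-fold lower. The FOXO list held IGFBP3, which binds insulin-like growth factors, at -0.24, 0.24, -0.74 and 1.40 (step 2.14, SD 0.31 between 2 probe sets), and the repressor BCL6 at -0.37, -0.30, 0.30 and 1.46 (step 1.16, SD 0.37 between 3 probe sets). In the BMP list the decoy receptor BAMBI was at 1.29 and BMP4 at 1.10, while HAMP, hepcidin, was at 0.03. TGF-beta targets had a median of 0.27 over 15 genes and none past 2-fold, but 0.15 without cross-matching probe sets and 0.11 against the mean of 2 h and 6 h, with the receptor gene TGFBR2 at 0.59 (SD 0.01 between 2 probe sets). Interferon-stimulated genes had a median of 0.02 over 22 genes. Their 1 member past 2-fold, IFIT1, was at 0.11, -0.36, 1.61 and -0.11, a step of -1.72 that again ends a high 6 h value.

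The remaining genes among the 15 highest do not belong to these lists. SLC22A15, a member of the organic cation transporter family, was at -0.04, 0.00, 0.00 and 2.66, a step of 2.66. The antisense transcript DLGAP1-AS2 was at -0.11, 0.11, -0.37 and 1.85 (step 2.22, SD 0.34 between 2 probe sets), the RNA-binding protein RBM24 at 2.04, the factor SOX8 at 2.00, BEX2 at 1.95 and KLRK1-AS1 at 1.92. The 2 probe sets of KLHDC7B gave 0.93 and 3.09, so its step of 2.01 is uncertain. Among the lowest, ASB9 was at -1.92 and AP1M2, an adaptor subunit of epithelial sorting, at -1.90 (SD 0.02 between 2 probe sets).

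The ligand's own system lay close to 0 in the deposited values. Of 16 genes for APRIL, the related ligand BAFF, their receptors, heparan sulphate proteoglycans that bind APRIL and TRAF adaptors, 8 were above 0 and 8 below, and the median was -0.01 (0.43 on the spike-ins). None was past 1.5-fold, against 6.91% of all genes, a share at which 16 genes may well hold none. TNFRSF17, the receptor BCMA, was at -0.07, TNFRSF13B, the receptor TACI, at -0.22, and TNFSF13, APRIL itself, at -0.02. CAMLG, which binds TACI, was highest at 0.48, and TNFRSF13C, the BAFF receptor, lowest at -0.33.

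Markers of cells that should not be in a HepG2 culture were also read. Immune markers had a median of -0.02 over 13 genes (-0.44 to 0.26), which becomes 0.41 on the spike-ins, and endothelial markers -0.19 over 12 genes, turning to 0.24 on the spike-ins, with none past 2-fold in either. Of 12 fibroblast and stellate markers PDGFRB was past 2-fold, at 1.39 from 1 probe set, and the median was -0.06 (0.37 on the spike-ins). The values hold no level, so presence or absence of these cells was not tested. In all, 23 of the 50 lists had fewer than 2 members past 2-fold and medians between -0.19 and 0.20.

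**Figure D4:**
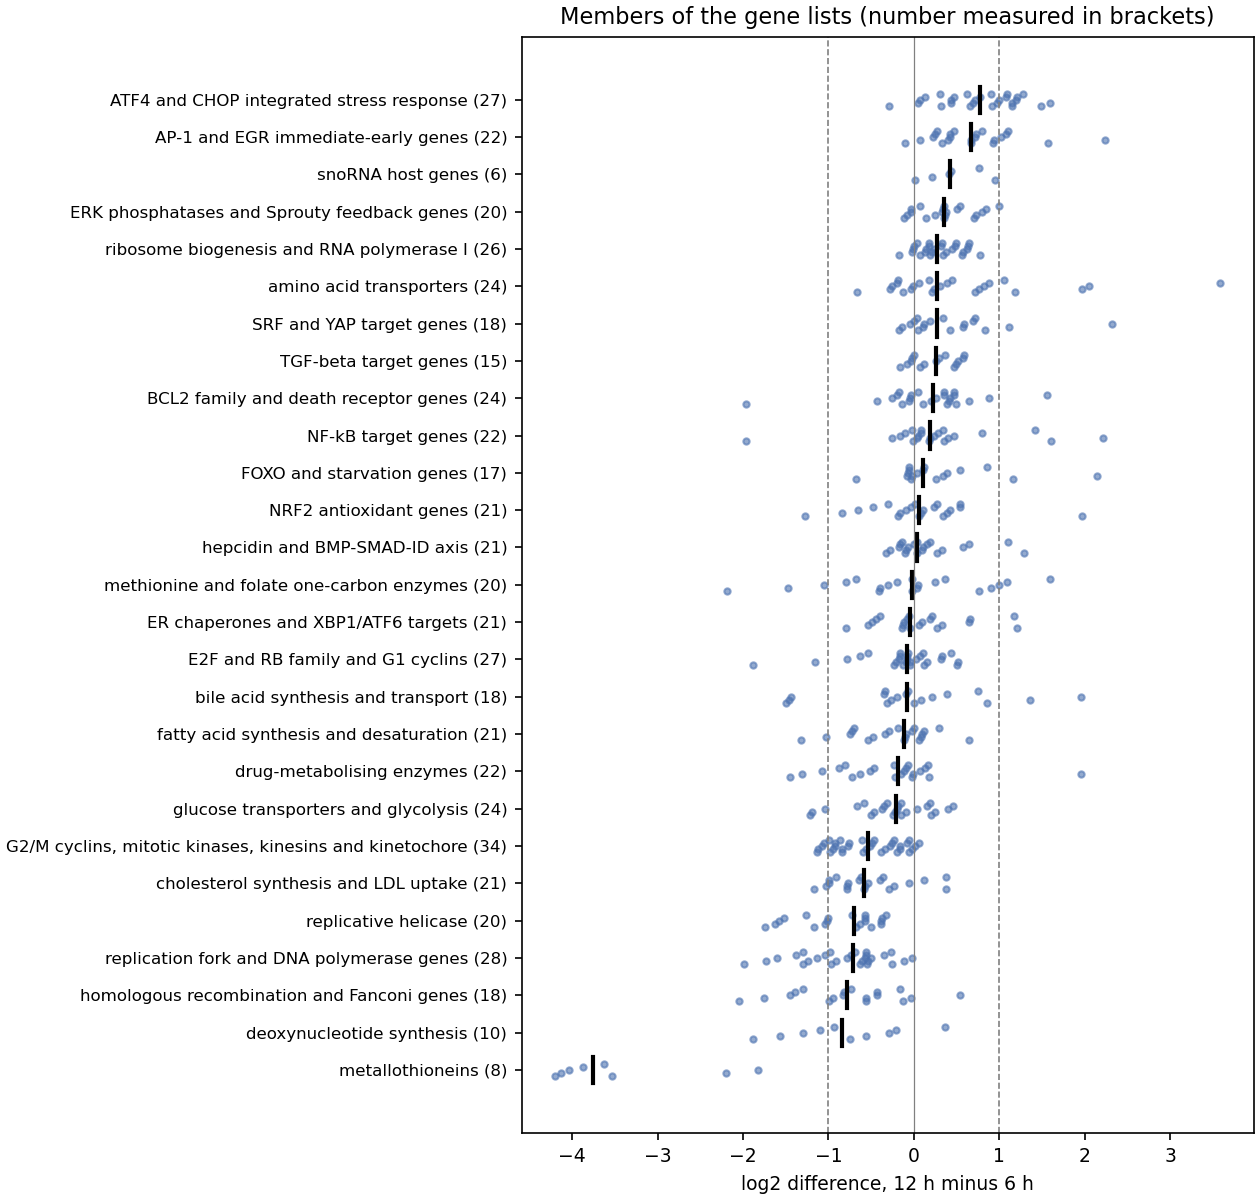
Step (log2, 12 h minus 6 h) of every measured member of the 27 lists with a median of at least 0.25 in size or at least 2 members past 2-fold; points are genes, bars are list medians and dashed lines mark 2-fold. Metallothioneins have a median of -3.75 and the integrated stress response list one of 0.77; centring on the spike-ins would move every point right by 0.43, and past 0 for list medians that lie less than 0.43 below it.

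Since the step can come from either array, both were set against the mean of 0 h and 2 h. The genes were chosen by 12 h minus 6 h, which by itself favours the 12 h and 6 h arrays as extremes of the 4. The share of all genes with these extremes was not counted. Among the 158 higher genes the 12 h array was the highest of the 4 for 152 and the 6 h array the lowest for 101. The 12 h array lay farther from the mean of 0 h and 2 h for 129 of them and the 6 h array for 29, with medians of 1.02 and -0.25. Among the 175 lower genes the 12 h array was the lowest for 170 and the 6 h array the highest for 114. The 12 h array lay farther out for 156 and the 6 h array for 19, with medians of -1.07 and 0.24. For 22 of the higher and 16 of the lower genes the 12 h value was within 0.5 of that mean.

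The 48 genes in which 6 h lay farther out include RAD54B, IFIT1, CYP7A1 and TTK on the lower side and SLC7A11, CTH, TRIB3, VLDLR and DNAJB9 on the higher side. BHLHA15, which encodes a factor of secretory cells, is another (-0.20, 0.20, -1.22 and 0.52), chosen here after its values were seen. In 13 higher and 8 lower genes the change from 2 h to 6 h was itself past 2-fold in the opposite direction. In most others, EGR1, MT1X, MCM6 and SLC6A14 among them, 12 h was the outlying array.

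**Figure D5:**
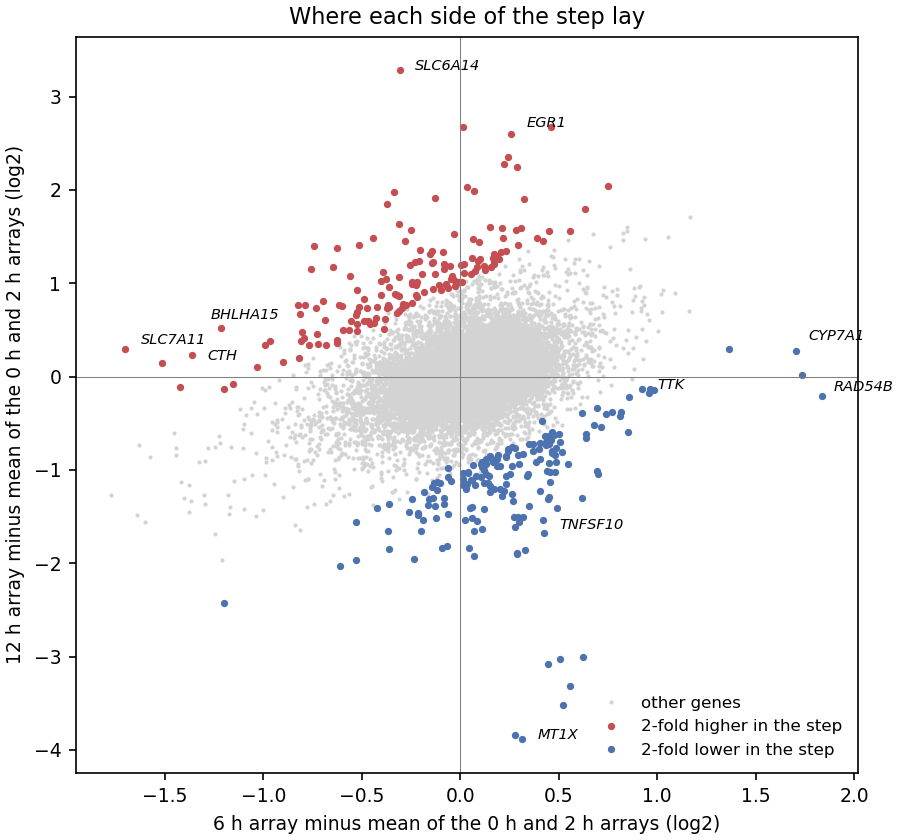
Each gene's 6 h value (horizontal) and 12 h value (vertical) minus the mean of its 0 h and 2 h values, in log2; red genes are past 2-fold higher and blue genes past 2-fold lower in the step. Most coloured genes spread along the vertical axis, as MT1X and SLC6A14 do, while SLC7A11, CTH, CYP7A1 and RAD54B lie far out on the horizontal axis and near 0 on the vertical one.

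The step from 0 h to 2 h, which shares no array with the step described, was small for most of the same lists. Its list medians were 1.481 for metallothioneins (against -3.75), 0.25 for the integrated stress response (against 0.77), 0.08 for immediate-early genes (against 0.67), -0.12 for the helicase list (against -0.70), -0.09 for G2/M genes (against -0.53) and -0.03 for cholesterol synthesis (against -0.58).

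The genes nearest the threshold were as follows. On the higher side DUSP5, FSIP2-AS2, AOC2, OSCAR and UTRN lay just past 2-fold, and HES1, RBM23, TMEM74B, ZNF581 and SHMT2 just short of it. On the lower side IMMP1L, CDC6, NRM, MPZL2 and CENPU lay just past it, and HMGCS1, RAD51C, ACAT2, CDK1 and CLIC3 just short. When rounded, all 20 steps were between 0.99 and 1.01 in size.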

How the data were processed

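RNA of 1 sample at each of 4 times was measured on Affymetrix U133 Plus 2.0 arrays. The authors deposited log values, taken here as log2. Per the submitters' processing notes they come from RMA (no version given), and were centred by the authors so that each probe set's median over the 4 arrays was 0 within 1e-06. The base of the log and the direction of the values are not stated; base 2 and more transcript at higher values were assumed. Of 54675 probe sets, 41091 carry 1 gene symbol in the platform annotation (41037 of them updated through the gene ID), 1801 carry several, 11721 none, and 62 are controls. These gave 19775 genes. Each array's values had a median within 0.011 of 0. The number of arrays, 1 a time, limits the precision of every value, and depth does not apply.

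For each probe set the 6 h value was subtracted from the 12 h value and the median was taken per gene; a gene's value on an array is the median over its probe sets, so the difference of 2 such values can deviate slightly from its step. Genes at or past 2-fold were counted. With 1 array a side no test was run. The 50 gene lists have 1074 entries, 952 of them measured; the others are not analysed here. Members and lists were chosen with earlier results of these data known. Genes were named by a rule: the 15 highest and 15 lowest whose probe sets have 1 sign; the 4 largest members of each list with a median of at least 0.25 in size or at least 2 members past 2-fold; all metallothioneins; members of the APRIL system past 1.5-fold; the 5 genes nearest the threshold on each side; and all members past 2-fold of 7 lists. Genes named beyond it were chosen after their values were seen, and so was the motif TGATGNAA. Promoters are those of RefSeq (GRCh38.p14), 250 bases before the gene start, matched by symbol on both strands. Where under 80% of a gene list had an entry no share is given. For the genes past 2-fold higher, which are not such a list, shares are given although only 120 of 158 had an entry. The computation was run on simulated data with known changes put in, which checks the arithmetic only and not the results. Python 3.11.15, pandas 2.3.3 and numpy 2.4.6 were used.

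Alternatives were the mean over probe sets, the probe set with the widest range, leaving out probe sets named _x_at or _s_at (called cross-matching), centring on array medians or on spike-ins, the mean of 2 h and 6 h as reference, and thresholds of 1.5-fold and 3-fold.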

Additional observations from a re-analysis of the deposited data

How the results depend on the processing

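The counts of 158 higher and 175 lower genes stayed within 1.5 times under the mean over probe sets, without cross-matching probe sets, with each array centred on its median and against the mean of 2 h and 6 h, but the genes differed in part: 97 of the 158 and 126 of the 175 stayed past 2-fold against the mean of 2 h and 6 h, and 112 and 126 without cross-matching probe sets. They became 351 and 278 with the widest-range probe set per gene, 733 and 53 with the arrays centred on spike-ins, 694 and 673 at 1.5-fold, and 27 and 35 at 3-fold. Of the 175 lower genes 53 stayed past 2-fold on the spike-ins, and all 158 higher ones did. The spike-in setting adds 0.43 to every step; the cause of the offset was not tested. Medians that kept their direction but fell under 0.25 in size were those of the SRF and YAP list (0.15 without cross-matching probe sets, 0.18 against the mean of 2 h and 6 h), amino acid transporters (0.24 under both of these), TGF-beta targets (0.25 with the mean over probe sets, 0.15 without cross-matching probe sets, 0.11 against the mean of 2 h and 6 h), ribosome biogenesis (0.25 with the mean over probe sets, 0.18 against the mean of 2 h and 6 h), and, on the spike-ins, G2/M genes (-0.10) and cholesterol synthesis (-0.15). Medians of metallothioneins, immediate-early, helicase, fork, deoxynucleotide, recombination, ERK, snoRNA host and integrated stress response genes kept their direction and at least 0.25 in size under every alternative, although metallothioneins shrank from -3.75 to -0.84 (2 genes) and deoxynucleotide genes from -0.84 to -0.47 without cross-matching probe sets. Of the 146 genes named by the rule, MT1G, to 0.14, and TAGLN changed sign without cross-matching probe sets (109 have a value there), and none under the other alternatives. Genes named beyond the rule with a step less than 0.43 below 0 turn above 0 on the spike-ins. No paired analysis was possible because each time has 1 array, and no array could be left out. With no level in the values, signal over background could not be set.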

Other observations

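Further genes past 2-fold, chosen after their values were seen, fall outside the groups described. Several are enzymes of amino acid breakdown. FAH, the last enzyme of tyrosine breakdown, stood at 0.01, 0.10, -0.01 and -1.41 over 0, 2, 6 and 12 h, a step of -1.40 (SD 0.22 between 2 probe sets), DDC, which decarboxylates aromatic amino acids, stepped by -1.38 (SD 0.20 between 2 probe sets), HOGA1, of hydroxyproline breakdown, by -1.37, and ALDH7A1, of lysine breakdown, by -1.03 (SD 0.50 between 3 probe sets). ACOX2, a peroxisomal oxidase that shortens bile acid precursors, stepped by -1.28, EHHADH, another peroxisomal enzyme, by -1.22, and LEAP2, a liver peptide hormone, by -1.49. Of 2 genes of the S-phase checkpoint outside the lists, DTL stepped by -1.80 (SD 0.15 between 2 probe sets) and CHEK1 by -1.49 (SD 0.60 between 4 probe sets).

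On the higher side, 2 receptors of the tumour necrosis factor family that are not receptors of APRIL were past 2-fold. TNFRSF12A, the receptor of TWEAK, stood at -0.19, 0.19, -0.23 and 1.23 (step 1.46), and TNFRSF21 at -0.06, 0.06, -0.73 and 0.73 (step 1.46, SD 0.08 between 2 probe sets). INHBE, an activin subunit of liver, was at 1.64 and FST, which binds activins, at 1.33 (SD 0.30 between 3 probe sets). ARG2, mitochondrial arginase, was at 1.36 (SD 0.34 between 2 probe sets). The cytoskeletal genes PALLD, FRMD6, CDC42EP5 and CDC42EP1 were at 1.49 (SD 0.76 between 4 probe sets), 1.45, 1.43 and 1.32.

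Some genes past 2-fold are next to each other among the measured genes. Beyond the metallothionein cluster they include PKLR and FDPS (-1.04 and -1.03), HMOX1 and MCM5 (-1.27 and -1.02), RPA3 and UMAD1 (-1.60 and -1.26), and DLGAP1-AS2 and DLGAP1-AS6 (2.22 and 1.66). CDC42EP1 and LGALS2 are neighbours with opposite steps, 1.32 and -1.32.

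By gene type, 148 of 16521 protein-coding genes (0.896%) were past 2-fold higher and 171 (1.04%) lower, against 7 (0.263%) and 4 (0.150%) of 2658 lncRNA genes. Of the 11721 probe sets without a gene name, 69 (0.589%) were past 2-fold higher and 37 (0.316%) lower, against 458 (1.11%) and 354 (0.862%) of the 41091 probe sets with 1 gene symbol.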
